A study of Drosophila melanogaster with 4 samples.

Results

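Cytochrome c oxidase, complex IV of the respiratory chain, is described here through its nuclear-encoded subunit genes in adult testes of Drosophila melanogaster. The genes were taken by name: CoVa, cype, levy and every gene whose name in the files begins with CoIV, CoV or COX followed only by letters or digits. This gave 8 genes of 16510 names in the files: CoIV, CoVa, CoVb, CoVIb, CoVIIc, CoVIII, cype and levy. Their current symbols are COX4, COX5A, COX5B, COX6B, COX7C and COX8, while cype and levy, which encode subunits 6C and 6A, keep their names. Polyadenylated RNA was sequenced in 4 libraries, 2 from males labelled with the genotype Su(var)3-9 and 2 from wild-type males, all 3 days old and kept at 23 °C. Each library came from 50 dissected testes, and the series calls the replicates biological. Su(var)3-9 encodes a histone methyltransferase of heterochromatin. No source used here gives the allele.

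The oxidase sits in the inner mitochondrial membrane, takes electrons from cytochrome c and passes them to oxygen while protons are pumped. Its catalytic core is encoded by the mitochondrial genome, and the smaller subunits around it, encoded in the nucleus, are needed for its assembly and tune its activity. In the fly testis the mitochondria of each spermatid fuse into the Nebenkern, which unfurls and elongates along the growing sperm tail, and many nuclear genes for mitochondrial proteins have a second copy with testis-biased expression. The 3 core genes of the mitochondrial genome were not analysed here. No sequence of these genes was used here, so they are given by name and position.

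The values are FPKM, fragment numbers normalized to transcript length and library depth, with the bounds of a 95% interval. That interval describes uncertainty within 1 library and is called counting error here, although it can be wider than counting alone, as for CG34172 below. The fragments behind the FPKM values, estimated from the intervals, came to about 1446650 and 1468280 in the mutant-labelled libraries and to 3207720 and 3366750 in the wild type. Depth thus split the libraries the way genotype did. Su(var)3-9 itself was listed at 0 FPKM in mutant replicate 1 and stood at 7.83 FPKM in mutant replicate 2, against 7.93 and 9.74 FPKM in the wild type. By the level of that gene alone mutant replicate 2 resembles the wild type. Over all genes tested, its log2 levels correlated at 0.948 with mutant replicate 1 and at 0.895 and 0.907 with the wild type. All directions here refer to the labels. The summed FPKM of 10 germline and spermatid markers was 20363 and 19301 in the mutant-labelled libraries and 13326 and 12253 in the wild type, most of it from Mst87F, a gene of elongating spermatids. Mst87F and ocn rose, bol fell and the other 7 did not pass, among them dj, the don juan gene of the sperm tail, which lay between 1518 and 1860 FPKM. The summed FPKM of 4 markers of somatic testis cells was 27.8 and 24.8 against 28.0 and 27.9. The summed FPKM of 7 muscle markers was 207 and 260 in the mutant-labelled libraries and 209 and 203 in the wild type, with none of the 7 genes listed at 0 in every library and none past the threshold. The summed FPKM of 6 accessory gland markers was 9.50 and 31.7 against 841 and 4.42, so those RNAs stood out in wild type replicate 1 alone. Of 5 markers of ejaculatory duct and bulb the sum was 295 and 263 against 142 and 92.7, nearly all of it from PebIII, which rose (limma adjusted p = 0.0363), while Dup99B was listed at 0 throughout. Of 5 fat body markers the sum was 22.1 and 21.9 against 17.1 and 16.3, and Yp1 was listed at 0 throughout. The part of these cells and tissues in the results below was not tested.

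In the wild type, CoVa was the most abundant of the 8 genes and 7 of them were expressed at 47.1 to 231 FPKM. CoVa (3R, 11819359 to 11820299, dm6), which encodes subunit 5A, stood at 231 and 229 FPKM. CoVIb (X, 19740537 to 19744335), the gene of subunit 6B, stood at 150 and 127 FPKM, and cype (2L, 5327227 to 5327969) at 151 and 117 FPKM, so the libraries of this pair overlapped. CoVIII (3L, 21538859 to 21539447), which encodes the small membrane subunit 8, stood at 82.5 and 102 FPKM and levy (2R, 23548239 to 23548982) at 83.5 and 95.5 FPKM, again with overlap. CoIV (2L, 19958713 to 19960065), whose product is in mammals a regulatory subunit of the enzyme, was lower at 47.5 and 51.1 FPKM. CoVb (2L, 6557800 to 6559308), the gene of subunit 5B, which binds zinc in mammals, was the lowest of the expressed genes at 47.2 and 47.1 FPKM. Apart from those overlapping pairs, each gene lay above the next in both wild-type libraries. FPKM is scaled by length, so levels of different genes are set side by side here. The order depends on that scaling. In wild type replicate 1 CoVIII rested on an estimated 51.4 fragments and CoIV on 114, the reverse of their FPKM. How well the scaling holds for short transcripts was not tested. The order of the mean levels was the same in the mutant-labelled libraries except that levy lay above CoVIII there.

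CoVIIc (2R, 10048353 to 10050066), the gene of subunit 7C, was listed at 0 FPKM in all 4 libraries. It is counted among the 8 genes but entered no test. The deposited status was OK for this gene as for every row, so the estimate was not flagged as failed. This 0 is still not read as absence. In the current annotation 134 of its 853 exon bases overlap oys on the other strand, which stood at 97.7 to 117 FPKM in the 4 libraries. Its paralog CG44296, now COX7CL, which begins 281 bases further along the same strand, stood at 755 and 607 FPKM in the mutant-labelled libraries and at 606 and 539 FPKM in wild-type testes. Whether fragments of CoVIIc were assigned elsewhere was not tested.

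**Figure D1:**
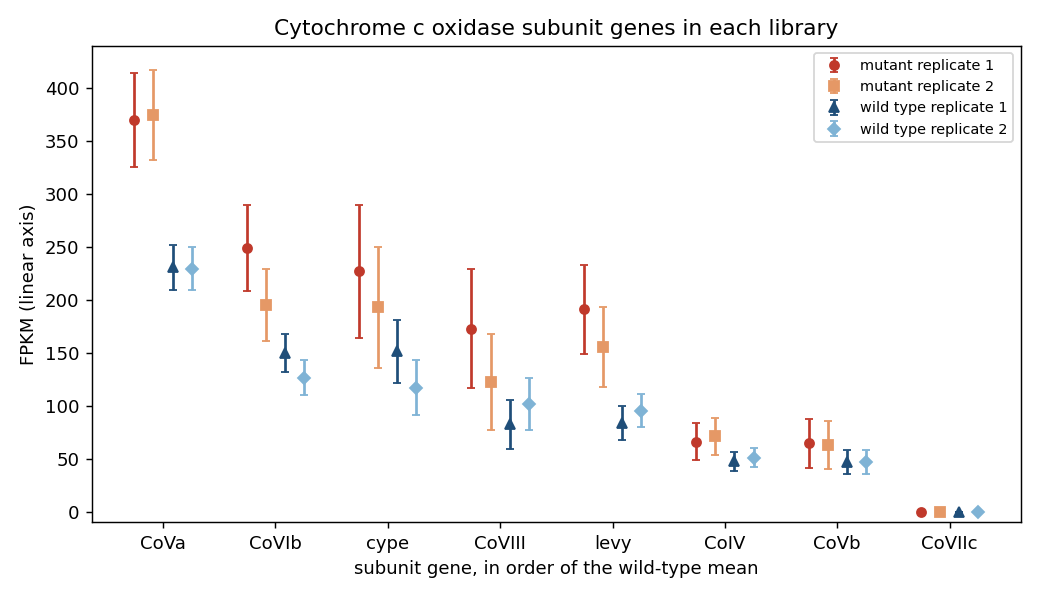
FPKM of the 8 subunit genes (linear axis) in each of the 4 libraries, with bars for the 95% interval deposited with each value. The 7 expressed genes were higher in both mutant-labelled libraries than in both wild-type libraries, with intervals of the genotypes apart for CoVa and levy only, and CoVIIc is listed at 0.

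The comparison of the mutant-labelled libraries with the wild type asks whether these genes are expressed differently in testes of Su(var)3-9 males. All 7 expressed subunit genes had higher values in both mutant-labelled libraries than in either wild-type library. Of all 10784 genes tested, 32.2% lay apart in that direction. CoVa, levy, CoIV and CoVb rose, CoVIb, cype and CoVIII did not pass the threshold, and none fell (limma on log2(FPKM + 1), Benjamini-Hochberg adjusted p under 0.05). Of all genes tested 11.4% were called higher and 8.67% lower. The log2 fold changes of the 7 genes ran from 0.43 to 0.94, with a median of 0.66, while the median of all genes tested was -0.01. Their summed FPKM was 1341 and 1175 in the mutant-labelled libraries and 793 and 769 in the wild type, a ratio of means of 1.61. In bulk tissue, a different share of cells that express a gene and a different amount of RNA per cell cannot be told apart.

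CoVa had the smallest standard error of the 7 genes. It stood at 370 and 375 FPKM in the mutant-labelled libraries, or 372 ± 3.45 FPKM (SD, n = 2), against 230 ± 1.16 FPKM (SD, n = 2) in the wild type. Both mutant-labelled libraries were high, and no deposited interval of one genotype reached one of the other. Its log2 fold change was 0.69 (SE 0.05, limma adjusted p = 0.00922). Loss of this gene is known to hold cells of the developing fly eye before DNA replication.

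The rise of levy was the largest of the set. Mutations in levy are known to cause paralysis and neurodegeneration in adult flies. It stood at 191 and 155 FPKM in the mutant-labelled libraries and at 83.5 and 95.5 FPKM in wild-type testes, so replicate 1 was the higher of the mutant pair and the genotypes did not overlap. Means were 173 ± 25.4 and 89.5 ± 8.46 FPKM (SD, n = 2), with a log2 fold change of 0.94 (SE 0.14, limma adjusted p = 0.0225). The deposited intervals of the genotypes lay apart for levy too. In the current annotation 16 of its 593 exon bases overlap pita on the other strand.

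CoIV and CoVb rose by less. CoIV stood at 66.0 and 71.4 FPKM against 47.5 and 51.1 FPKM in the wild type, with a log2 fold change of 0.47 (SE 0.09, limma adjusted p = 0.0401). CoVb stood at 64.4 and 63.0 FPKM against 47.2 and 47.1 FPKM (log2 fold change 0.43, SE 0.08, limma adjusted p = 0.0349). Both are separate in all 4 libraries, yet for both the deposited intervals of the genotypes overlap. An estimated 30.9 to 71.9 fragments lay behind each value of CoVb, and the wild-type pair differed by 0.273% of its mean, much less than the counting error of either value.

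CoVIb, cype and CoVIII had fold changes near that of CoVa but a wider spread between replicates. CoVIb stood at 249 and 195 FPKM against 150 and 127 FPKM (log2 fold change 0.67, SE 0.16, limma adjusted p = 0.0571). It shares 74 of its 789 exon bases with CG18809 on the same strand, which was listed at 0 in 3 libraries and stood at 5.63 FPKM in wild type replicate 2. The next gene, cype, was at 227 and 193 FPKM against 151 and 117 FPKM (log2 fold change 0.65, SE 0.16, limma adjusted p = 0.0641). CoVIII stood at 173 and 122 FPKM against 82.5 and 102 FPKM (log2 fold change 0.66, SE 0.21, limma adjusted p = 0.106). In these 3 genes the mutant-labelled replicates differed by 16.4% to 34.3% of their mean, against 1.31% for CoVa, and replicate 1 was the higher in each.

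The counting error of each log2 fold change was also computed from the deposited intervals, without the spread between libraries. It was larger than the standard error of the limma fit for 6 of the 7 genes, CoVIb being the exception. The 95% range from the intervals alone was 0.54 to 0.84 for CoVa, 0.65 to 1.23 for levy, 0.46 to 0.89 for CoVIb and 0.16 to 0.78 for CoIV. For cype it was 0.29 to 1.01 and for CoVIII 0.22 to 1.10. For CoVb it ran from -0.002 to 0.86, so the call of CoVb rests on replicates that lay closer together than their counting error.

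Level and transcript length both moved with the fold changes of all genes, and the subunit genes are abundant and short. Of the 7 genes 2 were in the highest of 10 level classes, 3 in the next and 2 in the one below. In those classes 46.2%, 21.2% and 12.5% of all genes tested were called higher, with median log2 fold changes of 0.33, 0.15 and 0.05. The longest annotated transcripts of the 8 genes have 460 to 1114 bases, and 5 of the 7 tested genes fall between 500 and 1000 bases, where 22.3% of genes were called higher with a median of 0.26. Each of the 7 fold changes lies above the median of both of its classes. With a trend on transcript length removed from each library, the log2 fold change was 0.82 for levy, 0.68 for cype and 0.50 for CoVa, which passed, and 0.27 and 0.23 for CoIV and CoVb, which did not.

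Scaling between libraries moved the values but turned no direction among the 7 genes. The summed FPKM of all genes was 1.22 times as high in the mutant-labelled libraries, so dividing each library by its sum (TPM) lowered the median of all genes to -0.27. The median of the 7 genes was then 0.37, and CoVa and levy passed. Quantile normalization gave a median of 0.43 with the median of all genes at 0.01, and again CoVa and levy passed. The balance of all called genes moved too, from 1229 higher and 935 lower as deposited to 849 and 982 under quantile normalization and to 588 and 2046 under TPM scaling. Without a variance trend CoVa alone passed. Without any 1 library none of the 7 genes passed. The spread then comes from the genotype with 2 libraries alone, and the lone library is assumed to vary like it. The cause of these lost calls was not tested. Only scaling and removal of the length trend could have turned a sign among the 7 genes, whose libraries did not overlap. The fold changes stayed above zero in all 119 values over 17 alternative settings. The smallest adjusted p among them was then 0.0680 without mutant replicate 1, 0.0682 without mutant replicate 2, 0.124 without wild type replicate 1 and 0.120 without wild type replicate 2. Without mutant replicate 1 and without mutant replicate 2 no gene of the 10784 passed, although 3852 and 3989 genes, and 4 and 6 of the 7, had an unadjusted limma p under 0.05.

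**Figure D2:**
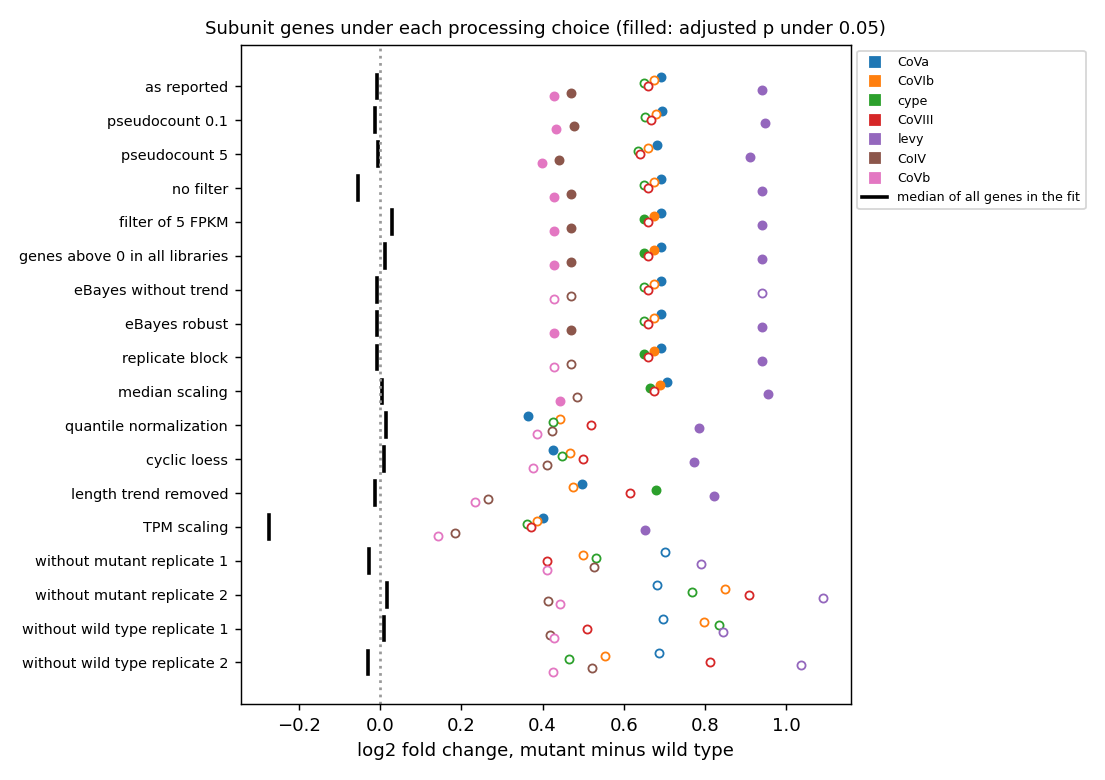
Log2 fold change, mutant minus wild type, of the 7 expressed subunit genes under the reported fit and 17 alternatives, with filled points where the limma adjusted p was under 0.05 and a black bar for the median of all genes in that fit. All points lie above zero, from 0.14 for CoVb under TPM scaling to 1.09 for levy without mutant replicate 2, and every point is open where a library was left out.

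The fly genome also holds paralogs of 6 of the 10 nuclear-encoded subunits considered here, and 2 further subunit genes that the files list under CG numbers. CG9603, now COX7A, rose from 154 and 142 FPKM to 231 and 201 FPKM (log2 fold change 0.54, SE 0.10, limma adjusted p = 0.0350). It no longer passed under quantile normalization (0.31, adjusted p = 0.0782), cyclic loess (0.33, 0.0695) and TPM scaling (0.25, 0.108), without a variance trend (adjusted p = 0.0870) or without any 1 library (0.0799 to 0.254). CG7630, now COX7B, stood at 126 and 67.5 FPKM in the mutant-labelled libraries and at 40.2 and 56.9 FPKM in wild-type testes, with a log2 fold change of 0.93 (SE 0.36, limma adjusted p = 0.151). For neither gene did the libraries of the genotypes overlap, and the fold change of CG7630 was 0.49 without mutant replicate 1 and 1.38 without mutant replicate 2.

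In the wild type 7 of the 8 paralogs lay above CoVa, the most abundant of the named subunit genes, in both libraries. CG10396, now COX4L, stood at 623 and 548 FPKM in the wild type, which was 13.1 and 10.7 times the level of CoIV in the same library. CG11043, now COX5BL, which begins 122 bases beyond CoVb on the same strand, stood at 297 and 286 FPKM, or 6.29 and 6.07 times CoVb. For subunit 6A, CG30093, now COX6AL, was at 275 and 294 FPKM and CG14077, now COX6AL2, at 401 and 393 FPKM, against 83.5 and 95.5 FPKM of levy. CG31644, now COX6CL, was at 751 and 669 FPKM, or 4.96 and 5.71 times cype. CG18193, now COX7AL, was at 688 and 669 FPKM, or 4.46 and 4.72 times CG9603, while CG34172, now COX7AL2, stood at 9.08 and 5.44 FPKM. The fragment estimate from the intervals of CG34172 was under 2 per library. Those intervals can be wider than counting alone, so the estimate is not read as a number of fragments. In the mutant-labelled libraries CG34172 stood at 19.4 and 9.10 FPKM (log2 fold change 0.83, SE 0.44, limma adjusted p = 0.255).

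Of these paralogs CG10396, CG11043, CG30093 and CG18193 rose and none fell (1 lower gene, CG14077, had an unadjusted limma p under 0.05), beside the 11.4% of all genes called higher. Their median log2 fold change was 0.41. Of the 8, 7 belong to the highest level class, where 46.2% of all genes were called higher with a median of 0.33, so their count lies near that of genes of like level. No paralog was called higher under quantile normalization or cyclic loess. CG10396 rose to 983 and 871 FPKM (log2 fold change 0.66, SE 0.10, limma adjusted p = 0.0228). CG30093 rose to 488 and 418 FPKM (log2 fold change 0.66, SE 0.10, limma adjusted p = 0.0228). CG11043 rose to 442 and 406 FPKM (0.54, limma adjusted p = 0.0173), with all of its exon bases overlapping CG9596 on the other strand, which was listed at 0 throughout. CG18193 rose to 793 and 862 FPKM (0.29, limma adjusted p = 0.0473), and its fold change turned to -0.05 under quantile normalization, -0.09 under cyclic loess and -0.005 under TPM scaling. CG44296, at the values given above, did not pass (0.24, SE 0.13, limma adjusted p = 0.268), and its fold change turned negative under quantile normalization, cyclic loess and TPM scaling. CG31644 stood at 762 and 648 FPKM in the mutant-labelled libraries, within the range of the wild type (-0.01, limma adjusted p = 0.951). CG14077 stood at 346 and 324 FPKM, below both wild-type libraries (-0.24, SE 0.06, limma adjusted p = 0.0613), and it was called lower under quantile normalization (-0.56, adjusted p = 0.0115), cyclic loess (-0.54, 0.0131) and TPM scaling (-0.54, 0.0137), and on genes above zero in all libraries (-0.24, 0.0489).

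A scaling factor common to all genes of a library cancels in a ratio within that library, whereas quantile normalization, cyclic loess and removal of the length trend can change it. The ratio of CG14077 to levy was 1.81 and 2.09 in the mutant-labelled libraries and 4.80 and 4.12 in the wild type, and that of CG31644 to cype was 3.35 and 3.36 against 4.96 and 5.71. Both ratios were lower in both mutant-labelled libraries. The differences of the mean log2 ratio were -1.19 and -0.67, with 95% ranges from counting error alone of -1.51 to -0.88 and -1.05 to -0.28. The ratio of CG30093 to levy (2.55 and 2.69 against 3.30 and 3.08) and that of CG18193 to CG9603 (3.43 and 4.29 against 4.46 and 4.72) were also lower without overlap, but their counting ranges of -0.62 to 0.05 and -0.52 to 0.001 reach zero. The ratio of CG10396 to CoIV (14.9 and 12.2 against 13.1 and 10.7) overlapped between genotypes. That of CG11043 to CoVb was 6.87 and 6.44 against 6.29 and 6.07, a difference of 0.11 with a counting range of -0.35 to 0.56. The ratio of CG34172 to CG9603 (0.0837 and 0.0453 against 0.0589 and 0.0384) overlapped too. No ratio was tested, and with 2 libraries a side a two-sided exact permutation p cannot be smaller than 0.333. Under quantile normalization and cyclic loess the differences for CG10396 to CoIV turned to -0.07 and -0.12 and those for CG11043 to CoVb to -0.17 and -0.12, while CG14077 to levy and CG31644 to cype stayed negative, at -1.34 and -1.31 and at -0.74 and -0.83. The level of CG14077 is uncertain, as 67.0% of its annotated exon bases overlap Ir75d on the same strand, which stood at 24.0 and 29.0 FPKM in the mutant-labelled libraries and was listed at 0 in both wild-type libraries.

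**Figure D3:**
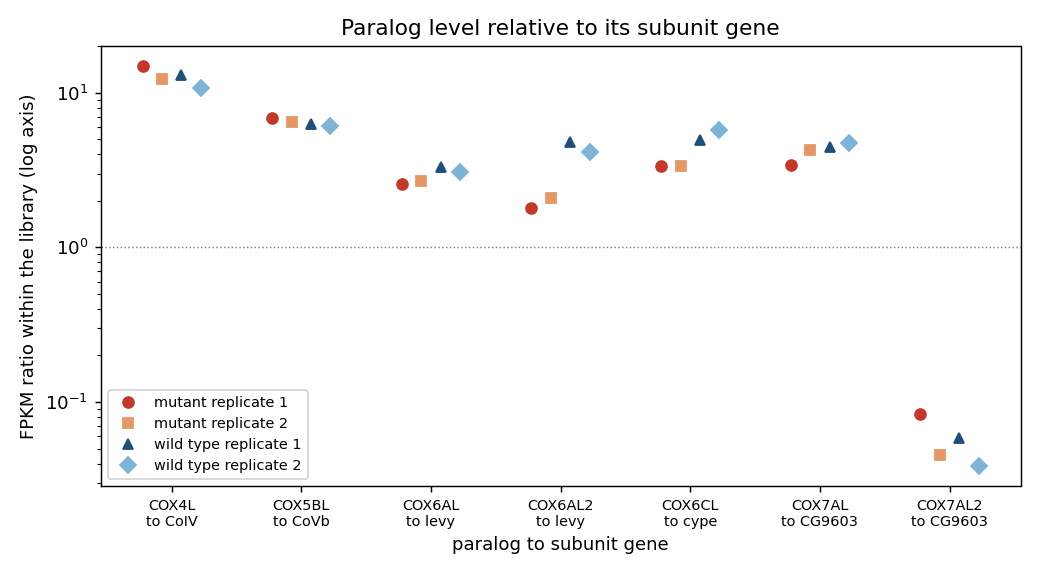
Ratio of the FPKM of each paralog to that of its subunit gene within each of the 4 libraries, on a log axis, with a dotted line at equal levels. The ratios of COX6AL2 to levy (1.81 and 2.09 against 4.80 and 4.12) and of COX6CL to cype (3.35 and 3.36 against 4.96 and 5.71) were lower in both mutant-labelled libraries, while those of COX4L to CoIV overlapped. The level of COX6AL2 is uncertain because its exons overlap Ir75d.

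Summed over the genes of a subunit, the levels differed widely between subunits. In the wild type the mean total was 844 FPKM for subunit 6C, 834 for 7A, 771 for 6A, 635 for 4 and 338 for 5B, each with at least 1 paralog. Subunit 7C stood at 573 FPKM from CG44296 alone, and this total may be too low, since the listed 0 of CoVIIc is not read as absence. The 4 subunits with no paralog here had lower totals, 230 FPKM for 5A, 138 for 6B, 92.2 for 8 and 48.6 for 7B. The share of a total that came from the named subunit gene was 11.0% and 12.2% for levy in the wild type and 18.6% and 17.3% in the mutant-labelled libraries. For cype it was 16.8% and 14.9% against 23.0% and 22.9%. For CG9603 it was 18.1% and 17.4% against 22.2% and 18.7%. The share of CoVb was lower in the mutant-labelled libraries, at 12.7% and 13.4% after 13.7% and 14.1% in the wild type. For CoIV it was 7.09% and 8.52% against 6.29% and 7.58%, with overlap. The log2 difference of the total, mutant minus wild type, was 0.12 for subunit 6C, 0.24 for 7C, 0.31 for 6A, 0.34 for 7A, 0.53 for 5B and 0.65 for 4, and 0.67 to 0.95 for the 4 subunits with no paralog. The 7C difference is that of CG44296 alone. The 6A total and the levy share include CG14077, whose level is uncertain because its exons overlap Ir75d.

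Genes that act around the oxidase were read from lists. Neither cytochrome c gene passed by limma, and Cyt-c-d alone had an unadjusted p under 0.05. Cyt-c-d, the testis form, which is needed for caspase activation when sperm individualize, stood at 974 and 957 FPKM against 879 and 816 FPKM (log2 fold change 0.19, limma adjusted p = 0.0941), and its fold change turned negative under quantile normalization, cyclic loess, TPM scaling and removal of the length trend. Cyt-c-p, the other form, stood at 47.4 and 40.0 FPKM against 47.7 and 31.5 FPKM (0.16, limma adjusted p = 0.658), with overlap. Its fold change turned negative under TPM scaling and removal of the length trend. None of 8 oxidase assembly genes passed by limma, beside 11.4% of all genes called higher and 8.67% lower. Of the 8, 2 higher and 2 lower had an unadjusted limma p under 0.05, as did 3989 of all 10784 genes tested. The median log2 fold change of the 8 assembly genes was -0.08. Among them Scox, which delivers copper to the enzyme, was at 50.1 and 42.4 FPKM against 34.4 and 37.4 FPKM (0.35, limma adjusted p = 0.128), and the copper chaperone gene CG9065, now Cox17, was at 102 and 92.7 FPKM against 80.4 and 71.6 FPKM (0.35, adjusted p = 0.0851). Ccdc56, the gene of assembly factor Coa3, was at 64.2 and 69.4 FPKM against 84.2 and 82.0 FPKM (-0.31, limma adjusted p = 0.0717), and it was called lower under TPM scaling (-0.60, adjusted p = 0.0213). All 1529 of its annotated exon bases lie in mtTFB1 on the same strand, so these values cannot be given to Ccdc56 alone.

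Of 75 genes of complexes I, II, III and V, 21 rose, none fell and 54 did not pass, beside 11.4% of all genes called higher. At an unadjusted limma p under 0.05, 32 were higher and 0 lower, beside 2127 higher of all 10784 genes tested. Of these 75 genes 18 were in the highest level class, 33 in the next and 18 in the one below, where 46.2%, 21.2% and 12.5% of all genes were called higher, and 41 had transcripts of 500 to 1000 bases, where 22.3% were. Their median log2 fold change was 0.36, against 0.66 for the 7 oxidase genes, and the difference between these lists was not tested. The lists are not alike in make-up. The 75 genes include paralogs such as CG6485, now ND-24L, and CG7349, now SdhBL. The 8 oxidase paralogs, with a median of 0.41, are not among the 7. In complex I, which feeds electrons from NADH into the chain, 11 of 40 genes rose, among them l(3)neo18, now ND-SGDH, from 59.2 to 172 FPKM (log2 fold change 1.52, limma adjusted p = 0.00508) and CG3214, now ND-B17.2, from 99.7 to 196 FPKM (0.97, adjusted p = 0.00861). In complex II, succinate dehydrogenase, SdhB alone of 6 rose, from 9.37 to 15.6 FPKM (0.68, adjusted p = 0.0386). In complex III, which hands electrons to cytochrome c, 5 of 12 rose, among them CG3731, now UQCR-C1, from 129 to 215 FPKM (0.74, adjusted p = 0.00975). In complex V, ATP synthase, 4 of 17 rose, with ATPsyn-Cf6 from 109 to 223 FPKM (1.02, adjusted p = 0.00816).

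**Figure D4:**
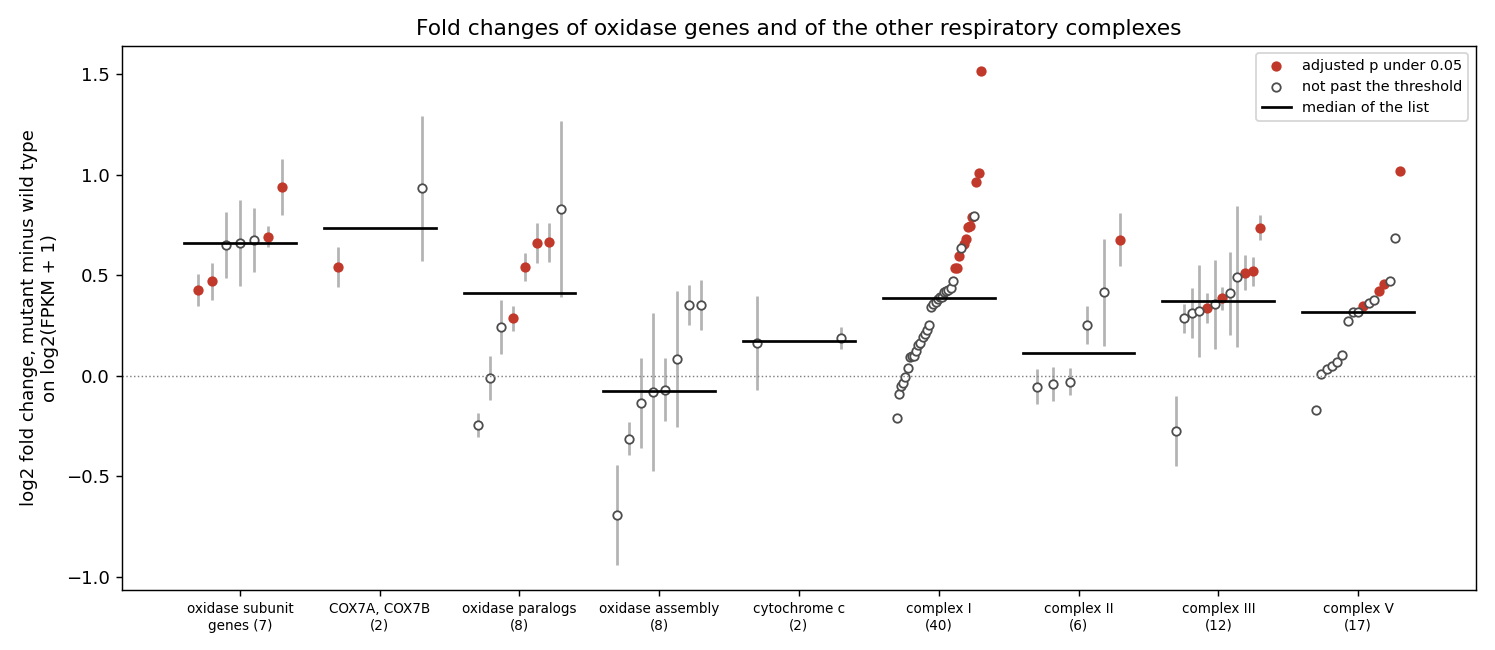
Log2 fold change, mutant minus wild type, of the genes tested in each list, with filled points past the threshold, a black bar at each list's median and grey bars for the standard error in lists of up to 12 genes. The 7 oxidase subunit genes all lie above zero between 0.43 and 0.94, and the 8 assembly genes lie on both sides of it with none past the threshold.

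The genes whose 4 values lay closest to those of CoVa, by Euclidean distance of log2(FPKM + 1) over the 4 libraries, were CG31913, CG3494, CG11635, CG6661 and Klp59C, at distances of 0.09 to 0.16. CG31913 stood at 387 and 381 FPKM in the mutant-labelled libraries and at 238 and 223 FPKM in wild-type testes. Klp59C, which encodes a kinesin, stood at 354 and 361 FPKM against 243 and 249 FPKM. None of the other oxidase genes was among these 5.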

How the data were processed

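Per the labels' protocols, 1 µg of total RNA from 50 testes made each TruSeq library, and a MiSeq was used for sequencing. TopHat, Cufflinks and dm6 are named in the submitters' processing notes, while versions, settings, annotation and strand use are not given in any source here. As deposited, each gene has an FPKM value with 95% interval bounds, per the file headers. Rows of repeated names were summed. Without stated strand, overlapping genes and close paralogs cannot be fully told apart.

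Fragments were estimated by squaring 2 times FPKM divided by the upper half-width of the interval. In rows with 1 start identifier and under 15 fragments, 54.4% to 63.1% of these estimates were within 0.05 of an integer, against 10% by chance. The expressed subunit genes had at least 28.7 estimated fragments in every library, so this check does not cover them. It does not cover CG34172 either, which has 3 start identifiers. Since the fragment numbers are estimates, no count model was run. The test was limma 3.58.1 in R 4.3.3 (eBayes with trend) on log2(FPKM + 1), for the 10784 genes averaging 1 FPKM or more, with Benjamini-Hochberg adjustment over them and a threshold of 0.05. Fold changes on this scale understate low genes. The procedure was tested on simulated data. Coordinates are those of the files, 1-based. Exon overlap and longest transcripts came from Ensembl release 115 on the same assembly, and current symbols from the reference gene tables.

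The members and lists were chosen with earlier results of these data known. Every gene found by the name rule is given, all paralogs and cytochrome c genes, and up to 3 genes per other list. CG31644, CG9603 and CG7630, the overlapping genes and the pairing of paralogs were added after the files were seen. Alternatives changed the pseudocount, filter, scaling, length trend, variance model and replicate block and left out each library in turn.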

Additional observations from a re-analysis of the deposited data

How the results depend on the processing

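As reported, 4 subunit genes, 4 paralogs and 21 genes of complexes I, II, III and V were called higher. No subunit gene fell under any setting run. Quantile normalization gave 2 subunit genes higher, 0 paralogs higher and 1 lower, and 11 genes of the other complexes higher and 1 lower. Cyclic loess, added after the data were seen, gave 2 subunit genes higher, 0 paralogs higher and 1 lower, and 10 and 1 of the other complexes. Of all genes 827 were higher and 994 lower under cyclic loess. TPM scaling, also added then, gave 2 subunit genes higher, 1 paralog higher and 1 lower, 7 and 2 of the other complexes, 1 assembly gene lower, and 588 higher and 2046 lower of all genes. Removal of the length trend gave 2 paralogs, 10 genes of the other complexes, and 731 higher and 579 lower of all genes. Without a variance trend 1 subunit gene, 0 paralogs and 5 genes of the other complexes were higher, with 494 and 609 of all genes. On genes above zero in all libraries 6 subunit genes were higher and 1 paralog was lower, with 1494 higher and 1079 lower of 9762 genes. The filter of 5 FPKM also gave 6 subunit genes higher, with 1312 higher and 875 lower of 7962 genes. Median scaling gave 5, with 1277 higher and 851 lower of all genes, and CoIV did not pass there. CoVIb and cype passed under each of these settings. Without 1 library the subunit, paralog and other complex genes called higher were 0 each, and all genes called ran from 0 to 12 higher and 0 to 251 lower. The cause of these losses was not tested.

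Several fold changes and log2 ratios changed sign between settings. CG31644 turned to 0.003 under median scaling and ran from -0.13 to 0.11 without 1 library. CG18193 turned to -0.052, -0.089 and -0.005 under quantile normalization, cyclic loess and TPM scaling, and CG44296 to -0.031, -0.110 and -0.048. Cyt-c-d turned to -0.111, -0.208 and -0.103 there and to -0.034 with the length trend removed. Cyt-c-p turned to -0.122 under TPM scaling and -0.009 with the length trend removed, and ran from -0.129 without wild type replicate 2 to 0.455 without wild type replicate 1. Under quantile normalization and cyclic loess the log2 ratios of CG10396 to CoIV turned to -0.065 and -0.120 and those of CG11043 to CoVb to -0.169 and -0.122. The log2 ratio of CG34172 to CG9603 ran from -0.070 without mutant replicate 1 to 0.816 without mutant replicate 2.

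The replicate numbers did not pair the samples by these data, as same-numbered libraries had a correlation of deviations of -0.05. With the replicate block 4 subunit genes passed, CoVIb and cype in place of CoIV and CoVb, with 1075 higher and 596 lower of all genes. The order of wild-type levels was the same for all 8 genes as TPM and with the highest row only. TPM divides a whole library by the same factor, and none of the 8 genes has a repeated name. Neither setting could thus reorder these genes within a library. Deposited intervals spanned 8.84% to 37.3% of a subunit value on each side, and the shallower libraries were those labelled mutant.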
